A study of Homo sapiens with 18 samples.

Results

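The blood vessel and blood progenitor genes described here are KDR, FLT1, TEK, TIE1, CDH5, PECAM1, ETV2, TAL1, LMO2 and SOX18, chosen by name for their place in endothelial and hematopoietic progenitors. All 10 are among the 57133 genes of the count table, and 9 of them passed the filter on low counts that left 17672 genes for testing. TAL1 did not pass. RNA-seq was performed on PGP1, an established human induced pluripotent stem cell (iPSC) line, without editing (WT) and after CRISPR-Cas9 deletion within the first exon of PCGF6 on both alleles. The edited clones, KO_1 and KO_2 in the labels and clone 1 and clone 2 here, carry different deletions, and each group, WT included, has 2 libraries. All 3 groups were kept as undifferentiated cells in mTeSR1 medium on Matrigel, with no differentiation step. Each knockout line grew from a single sorted cell, so an effect of the deletion and a property of that clone cannot be told apart within 1 clone. The labels do not say whether libraries of a group came from separate cultures, so p-values measure the spread between libraries, which may be technical.

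PCGF6 is a subunit of PRC1.6, a Polycomb complex that represses lineage genes in pluripotent cells. In the embryo, blood vessels and blood arise from mesoderm. Cells that take this route switch on the ETS factor ETV2 and the receptor KDR, then TAL1 and LMO2 on the way to blood or SOX18, TEK, TIE1, CDH5 and PECAM1 on the way to endothelium. KDR is used as a mark of early mesoderm as well as of endothelium, so its presence alone names no cell type. In bulk RNA, fewer expressing cells and less RNA per expressing cell cannot be told apart.

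Because KDR was the receptor gene called higher among the 10, FLT1 is its close relative and TIE1 was a receptor gene called lower, the 250 bases before the RefSeq start of each (GRCh38.p14) are shown, with every CpG in capitals. Polycomb complexes with a PCGF subunit are known to act at CpG-rich promoters.
KDR (chr4:55125596-55125845, reverse strand): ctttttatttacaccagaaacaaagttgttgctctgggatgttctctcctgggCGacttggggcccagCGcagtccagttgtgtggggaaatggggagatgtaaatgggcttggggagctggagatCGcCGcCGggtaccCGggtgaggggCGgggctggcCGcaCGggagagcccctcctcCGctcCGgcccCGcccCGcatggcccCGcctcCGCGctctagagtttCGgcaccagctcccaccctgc
FLT1 (chr13:28495129-28495378, reverse strand): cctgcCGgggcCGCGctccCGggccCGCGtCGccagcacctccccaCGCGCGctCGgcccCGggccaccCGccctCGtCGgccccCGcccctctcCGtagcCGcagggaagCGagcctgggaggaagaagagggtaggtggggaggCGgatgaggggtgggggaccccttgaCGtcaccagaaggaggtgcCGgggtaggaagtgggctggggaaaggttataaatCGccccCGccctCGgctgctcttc
TIE1 (chr1:43300732-43300981, forward strand): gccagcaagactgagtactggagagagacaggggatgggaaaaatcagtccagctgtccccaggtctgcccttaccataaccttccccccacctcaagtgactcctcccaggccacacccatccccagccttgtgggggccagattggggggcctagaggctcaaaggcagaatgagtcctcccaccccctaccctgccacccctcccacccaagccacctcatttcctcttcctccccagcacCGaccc
The KDR window held 17 CpG, more than in 61.0% of the 35116 promoter windows of RefSeq. The FLT1 window held 25, more than in 78.4%, and the TIE1 window held 1, more than in 6.1%. RefSeq promoters were matched for 6 of the 10 genes. The windows before the TAL1 starts held 24 and 14 CpG, those before the TEK starts 5 and 1, and that before the ETV2 start 9, where the median window held 11. The MAX and MGA E-box CACGTG, on either strand, was in none of these 8 windows and in 6.3% of all windows. The E2F core TTCCCGC was in 1 of the TEK windows (5.5% of all windows), the GATA motif AGATAA in a TAL1 and a TEK window (9.2%), and the ETS core CCGGAA in the ETV2 window and a TAL1 window (14.5%). The absence of a motif says only that its letters are not in the window.

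The libraries held between 15877396 and 18918609 counts, and 3 counts equalled between 0.157 and 0.187 CPM (counts scaled to library size, with TMM factors). PCGF6 itself was counted 268 and 300 times in the WT libraries, 99 and 103 times in clone 1 and 187 and 159 times in clone 2. Over the 4 PCGF6-KO libraries it fell by 1.15 on the log2 scale (adjusted p = 0.00914, standard error 0.27). All 8 defining markers of pluripotent cells had counts in all 6 libraries, and their summed level was 8200 to 8550 CPM in WT and 5803 to 6466 CPM in PCGF6-KO. Of them, 2 were called lower in PCGF6-KO, namely SOX2 (−0.69 on the log2 scale, adjusted p = 0.0178) and DNMT3B (−1.14, adjusted p = 0.000250), and 0 were called higher. The fall of the sum was mostly DNMT3B (mean 3016 CPM in WT, 1365 CPM in PCGF6-KO), so the sum does not speak for the list. By clone, SOX2 was called lower in clone 2 (−1.04) but not in clone 1 (−0.41, under the fold change threshold in size). POU5F1 differed by 0.01 on the log2 scale (adjusted p = 0.907). Calls rest on edgeR's quasi-likelihood test and need both an adjusted p (Benjamini-Hochberg) under 0.05 and a log2 fold change (log2FC) beyond 0.6 in size. For PCGF6-KO as 1 group, the test takes the 4 libraries as independent, though each clone gave a pair of them. Its p-values are thus not evidence from 4 separate knockout lines.

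In PCGF6-KO, the 10 genes did not move together. KDR and SOX18 were called higher, and CDH5 and TIE1 were called lower, so that 2 of the 9 tested genes rose, where 14.9% of all tested genes did, and 2 fell, where 8.70% of all tested genes did. SOX18 could be tested only because its counts in PCGF6-KO carried it past the filter, so nothing is read from the share of higher genes. FLT1 and TEK differed from WT by less than the fold change threshold, and ETV2, LMO2 and PECAM1 were not called when the clones were taken as 1 group. The median log2FC of the 9 genes was 0.25, and that of all tested genes was 0.00.

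**Figure D1:**
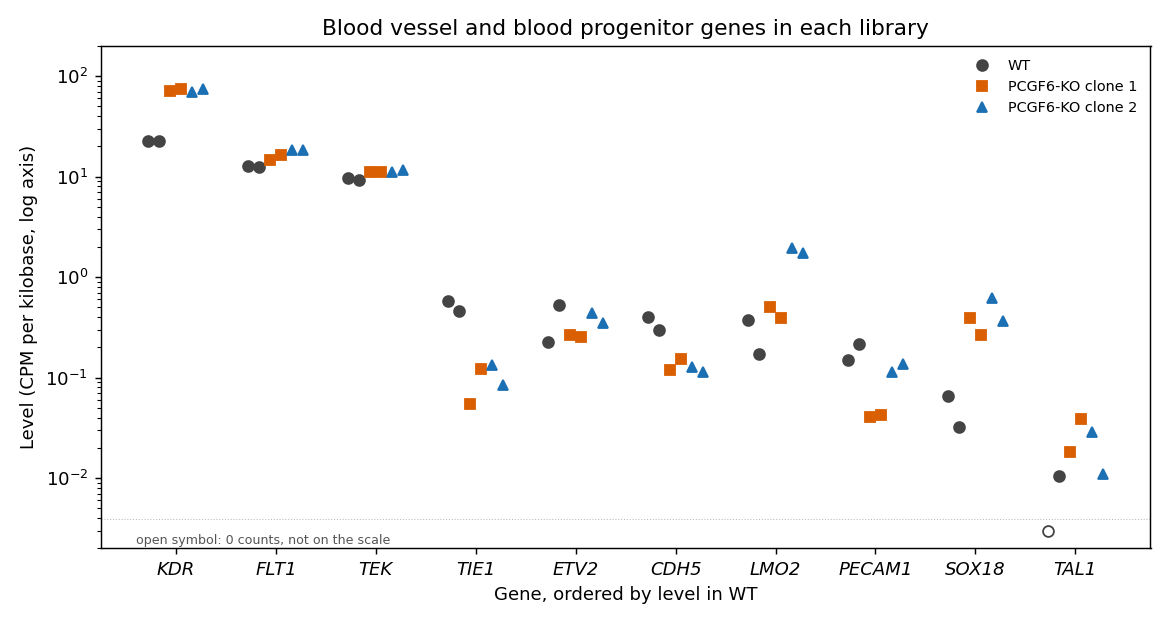
Level of each gene in each library, as CPM per kilobase of gene length on a log axis, with 2 libraries each for WT (circles), clone 1 (squares) and clone 2 (triangles). KDR, FLT1 and TEK lie above 9 CPM per kilobase in every library and the other genes below 2, and the KDR symbols of both clones lie between 69.0 and 75.2 against 22.7 and 22.8 in WT. The open symbol at the bottom is the count of 0 for TAL1 in a WT library.

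Per kilobase of gene length, the 10 genes fell into a high and a low group. In WT, KDR had 22.7 ± 0.0273 CPM per kilobase (SD, n = 2), FLT1 12.7 ± 0.141 (n = 2) and TEK 9.47 ± 0.431 (n = 2), each apart from the next beyond the spread of the libraries. TIE1 followed with 0.517 ± 0.0857 CPM per kilobase (n = 2), then ETV2 with 0.378 ± 0.212, CDH5 with 0.349 ± 0.0765, LMO2 with 0.274 ± 0.143 and PECAM1 with 0.183 ± 0.0465. Each of these overlapped its neighbour in the order. SOX18 with 0.0490 ± 0.0238 and TAL1 with 0.00525 ± 0.00742 were lowest. Against all tested genes, KDR stood at percentile 88.6 of levels in WT, 97.3 in clone 1 and 96.9 in clone 2. TIE1 stood at percentile 20.7 in WT, 1.88 in clone 1 and 3.15 in clone 2. In the clones the order of the first 3 genes was the same, and LMO2 came next in both, with 0.446 ± 0.0815 CPM per kilobase (n = 2) in clone 1, where it overlapped SOX18, and 1.85 ± 0.146 (n = 2) in clone 2, where it did not.

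KDR, the main receptor for VEGF-A on endothelial cells and their precursors (VEGFR-2), was counted 2435 and 2491 times in the WT libraries, 9020 and 8990 times in clone 1 and 8228 and 7840 times in clone 2. All 4 PCGF6-KO libraries lay above both WT libraries, and the clones overlapped. Scaled, this was 149 ± 0.179 CPM (SD, n = 2) in WT, against 482 ± 16.1 CPM (n = 2) for clone 1 and 471 ± 24.6 CPM (n = 2) for clone 2. PCGF6-KO thus exceeded WT 3.19-fold, or by 1.68 on the log2 scale (adjusted p = 3.5e-07, standard error 0.06). KDR lies on chromosome 4 from 55078481 to 55125595 on the reverse strand of GRCh38, where an lncRNA gene overlaps it on the opposite strand. Whether the counting used strand is not stated, so the reads of the pair cannot be told apart. Its nearest protein-coding neighbours, named after their values were seen, were KIT at 338 kb, which was called lower (log2FC −0.82, adjusted p = 0.000142), and SRD5A3 at 221 kb, which was not called (0.29, adjusted p = 0.105).

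FLT1 (VEGFR-1, a decoy-like VEGF receptor that binds VEGF-A tightly but signals weakly) was counted 2623 and 2646 times in the WT libraries, 3533 and 3759 times in clone 1 and 4215 and 3731 times in clone 2. After scaling, the 4 PCGF6-KO libraries lay above WT, with clone 2 above clone 1. The log2FC of 0.42 (adjusted p = 0.00893, standard error 0.10) was under the fold change threshold, and its 95% interval of 0.20 to 0.64 reached just past it. FLT1 lies on chromosome 13 from 28300346 to 28495145 on the reverse strand and overlaps no other annotated gene.

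The balance of the VEGF receptors was also read within each library, where no scaling between libraries enters. The KDR level per kilobase divided by that of FLT1 was 1.78 and 1.80 in the WT libraries, 4.89 and 4.58 for clone 1, and 3.74 and 4.02 for clone 2. Every PCGF6-KO library lay above WT, by 1.26 on the log2 scale on average, and clone 1 lay above clone 2. An exact two-sided permutation test over the 15 ways to assign 4 of 6 libraries gave p = 0.0667, the smallest this design allows. It was 1 of 4 ratios tested, all with this p, which adjustment over the 4 leaves as it is. The test takes the PCGF6-KO libraries as independent, though each clone gave a pair of them. Each ratio also holds KDR or TIE1, whose groups did not overlap, so its p adds nothing to their calls. FLT4, which encodes the VEGF-C receptor VEGFR-3, was counted 456 and 386 times in the WT libraries, 464 and 405 times in clone 1 and 257 and 207 times in clone 2, and was not called in PCGF6-KO as 1 group (log2FC −0.47, adjusted p = 0.165), while clone 2 alone was called lower (−0.91, adjusted p = 2.0e-07).

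**Figure D2:**
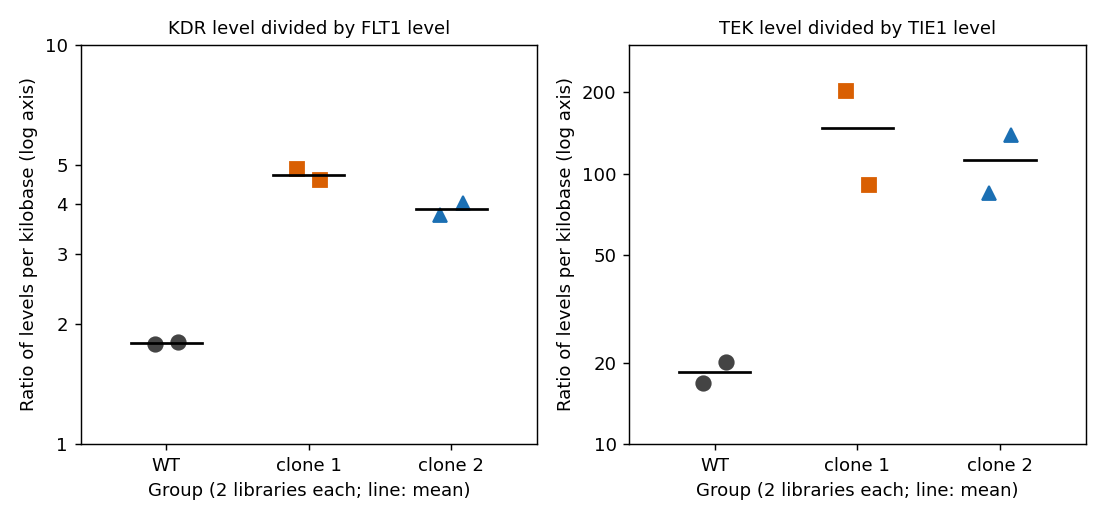
Ratio of the levels per kilobase of KDR to FLT1 (left) and of TEK to TIE1 (right) within each library, on log axes, with 2 libraries per group and the mean as a line. The KDR to FLT1 ratio is at most 1.80 in WT and at least 3.74 in the clones, and the TEK to TIE1 ratio is at most 20.1 in WT and at least 85.2 in the clones.

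The TIE receptors went apart as well. TEK, the angiopoietin receptor TIE2, was counted 766 and 736 times in the WT libraries, 1019 and 981 times in clone 1 and 978 and 896 times in clone 2. All PCGF6-KO libraries lay above WT, but the log2FC was small, at 0.25 (adjusted p = 0.0198, standard error 0.07, 95% interval 0.09 to 0.41). TIE1, an orphan receptor that pairs with TEK, was counted 63 and 51 times in the WT libraries, 7 and 15 times in clone 1 and 16 and 9 times in clone 2. All PCGF6-KO libraries lay below WT. This was 3.46 ± 0.574 CPM (SD, n = 2) for WT and 0.658 ± 0.240 CPM (n = 4) over both clones, so that TIE1 fell by 2.38 on the log2 scale (adjusted p = 0.000532, standard error 0.33).

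Within libraries, the TEK level per kilobase divided by that of TIE1 was 16.9 and 20.1 in the WT libraries, 203 and 91.1 for clone 1, and 85.2 and 139 for clone 2. The spread in the clones goes with the 7 to 16 counts of TIE1 there. The exact two-sided permutation test gave p = 0.0667, again the smallest possible and with the same limits. TEK lies on chromosome 9 from 27109141 to 27230174 and holds 2 pseudogenes on its strand, and TIE1 lies on chromosome 1 from 43300982 to 43323108 with no overlapping gene. C1orf210, the neighbour of TIE1 at 15.4 kb, was also called lower (log2FC −1.28, adjusted p = 0.00597), whereas IFT74 beside TEK was not called (−0.15). Both were named after their values were seen.

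Of the junction genes of endothelium, CDH5 fell, and PECAM1 lay below WT in every PCGF6-KO library without being called. CDH5, which encodes VE-cadherin, the adhesion protein of endothelial junctions, was counted 40 and 30 times in the WT libraries, 14 and 17 times in clone 1 and 14 and 11 times in clone 2. Both clones lay below WT and overlapped each other. The log2FC was −1.43 (adjusted p = 0.00374, standard error 0.28), with 2.12 ± 0.465 CPM (SD, n = 2) for WT and 0.780 ± 0.108 CPM (n = 4) over both clones. Without replicate 1 of WT it was −1.19 and no longer called (adjusted p = 0.0642). PECAM1, which encodes the junction and platelet protein CD31, was counted 19 and 28 times in the WT libraries, 6 and 6 times in clone 1 and 16 and 17 times in clone 2. All PCGF6-KO libraries lay below WT, with clone 1 farthest. CDH5 lies on chromosome 16 from 66366690 to 66404784 on the forward strand with no overlapping gene, and PECAM1 on chromosome 17 from 64319415 to 64413776 on the reverse strand, where it holds a small Y RNA gene. As 1 group, PCGF6-KO had a log2FC of −1.15 for PECAM1 (adjusted p = 0.101, standard error 0.50) and was not called, but it was called without replicate 2 of clone 2 (−1.48, adjusted p = 0.0479) and for the mean of the clones (−1.34, adjusted p = 0.00299). That mean comes from the fit with a group for each clone, whose error leaves out the spread between the clones.

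Among the transcription factors, SOX18, a SOX F factor of endothelium, was counted 2 and 1 times in the WT libraries, 14 and 9 times in clone 1 and 21 and 11 times in clone 2. It passed the filter only through the PCGF6-KO libraries. Summed over the libraries of each genotype, its scaled counts were 8.46 times those of WT, with an exact 95% binomial interval of 2.75 to 42.3 that covers counting error only. The test gave an adjusted p of 0.00705, and 0.0774 without replicate 2 of WT, which ends the call. At its highest, SOX18 reached 1.16 CPM, so a rise of many fold left it at a low level. SOX18 lies on chromosome 20 from 64047582 to 64049639 on the reverse strand, and TCEA2, 0.197 kb away and named after its values were seen, was not called (log2FC −0.19, adjusted p = 0.173).

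LMO2, a LIM-domain adaptor that joins TAL1 to other factors in blood progenitors, was counted 19 and 9 times in the WT libraries, 30 and 22 times in clone 1 and 110 and 87 times in clone 2. With 9 counts in a WT library, LMO2 passed the filter only with PCGF6-KO libraries. Clone 1 lay just above WT and clone 2 far above both. PCGF6-KO as 1 group had a log2FC of 2.05 (adjusted p = 0.0640, standard error 0.76) and was not called. LMO2 was called by DESeq2 (adjusted p = 0.00416), without the filter on low counts (0.00803), for the mean of the clones (log2FC 1.73, adjusted p = 2.9e-05), and without replicate 1 or 2 of clone 1 (0.0324 and 0.0224). As for PECAM1, the mean of the clones leaves the spread between them out of the error. LMO2 lies on chromosome 11 from 33858576 to 33892076 on the reverse strand, and an lncRNA gene overlaps it on the opposite strand. Its neighbours FBXO3 and CAPRIN1, named after their values were seen, had log2FCs of −0.25 and −0.24 and were not called.

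ETV2, the ETS factor that starts the endothelial and blood programme, was counted 8 and 19 times in the WT libraries, 11 and 10 times in clone 1 and 17 and 12 times in clone 2. The groups overlapped. Its log2FC was −0.22 (adjusted p = 0.729, standard error 0.44), and the 95% interval of −1.21 to 0.77 spans changes in either direction. The sign turned to 0.51 without replicate 2 of WT. TAL1, the basic helix-loop-helix factor required for blood, was counted 0 and 1 times in the WT libraries, 2 and 4 times in clone 1 and 3 and 1 times in clone 2. Its summed scaled counts were 4.61 times those of WT, with an exact 95% binomial interval of 0.656 to 200 that covers counting error only, so a difference was not detectable at this depth. Without the filter, its adjusted p was 0.402. ETV2 lies on chromosome 19 from 35641745 to 35644871 on the forward strand, and TAL1 on chromosome 1 from 47216290 to 47232225 on the reverse strand, overlapped by an lncRNA gene on the opposite strand.

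The clones were then compared with WT one by one and with each other. Clone 1 and clone 2 share the WT libraries, so their differences from WT are not independent. In clone 1, KDR and SOX18 were called higher (2 of 9 tested, where 16.0% of all tested genes were) and PECAM1, CDH5 and TIE1 lower (3 of 9, where 8.80% were). With only the libraries of clone 1 and WT in the filter and fit, 7 of the genes were tested, SOX18 was not among them, and KDR was the 1 gene called higher. In clone 2, KDR, LMO2 and SOX18 were called higher (3 of 9, where 16.9% were) and CDH5 and TIE1 lower (2 of 9, where 12.5% were). LMO2, with 9 counts in a WT library, and SOX18 passed the filter only with PCGF6-KO libraries. Nothing is thus read from the share of higher genes in either clone. KDR had a log2FC of 1.69 in clone 1 and 1.66 in clone 2 (standard error 0.06 in each). TIE1 had −2.54 (standard error 0.36) and −2.23 (0.35), CDH5 −1.35 (0.36) and −1.53 (0.37), and SOX18 2.67 (0.76) and 3.26 (0.71). By DESeq2, CDH5 (adjusted p = 0.0660) and SOX18 (0.0605) were not called in clone 1. Leaving out replicate 1 of WT ended the call of CDH5 in clone 1 (adjusted p = 0.0684) and made one of LMO2 (0.0286), and leaving out replicate 2 of WT ended that of SOX18 (0.0704).

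**Figure D3:**
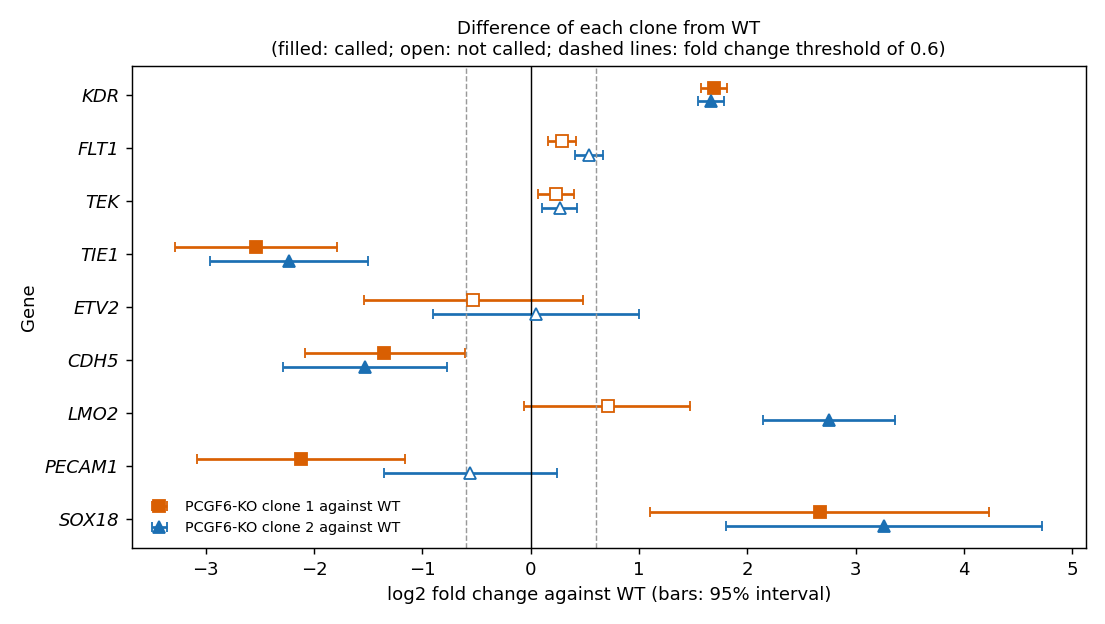
Log2 fold change of each tested gene in clone 1 (squares) and clone 2 (triangles) against WT, with 95% intervals from the fit with 3 groups; filled symbols were called and dashed lines mark 0.6. KDR lies near 1.7 in both clones, while LMO2 (0.71 against 2.75) and PECAM1 (−2.12 against −0.56) differ between the clones.

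Of the 9 tested genes, LMO2 and PECAM1 were called between the clones. Both were higher in clone 2 than in clone 1, 2 of 9 where 3.73% of all tested genes were, and 0 of 9 were lower, where 4.14% were. LMO2 had 1.39 ± 0.253 CPM (SD, n = 2) for clone 1 against 5.74 ± 0.455 CPM (n = 2) for clone 2, a log2 difference of 2.04 (adjusted p = 2.1e-06, standard error 0.26). PECAM1 differed by 1.57 (adjusted p = 0.0271, standard error 0.50), but this call was lost by DESeq2 (adjusted p = 0.177) and without any of the 4 clone libraries (adjusted p between 0.0608 and 0.131). FLT1 was higher in clone 2 by 0.25 (adjusted p = 0.00479, standard error 0.06), under the fold change threshold. For KDR the difference was −0.04 with a 95% interval of −0.15 to 0.08, and for TEK 0.03 with −0.13 to 0.19. The intervals were wider for the low genes, from −1.07 to 0.70 for CDH5, −0.68 to 1.28 for TIE1, −0.37 to 1.55 for SOX18 and −0.41 to 1.58 for ETV2.

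The other genes of the pathway were described by lists. A tested gene counted fewer than 10 times in a WT library passed the filter only with PCGF6-KO libraries. The counts of higher genes in the lists thus depend in part on the filter. Of 8 ligands of the VEGF and TIE receptors, 1 was called higher, 1 lower and 6 were not called in PCGF6-KO (median log2FC 0.46). Among all tested genes, 14.9% were called higher and 8.70% lower, the background for this and every later list in PCGF6-KO. ANGPT2, the context-dependent antagonist of TEK, was counted 1 and 1 times in the WT libraries, 107 and 94 times in clone 1 and 248 and 171 times in clone 2. Its scaled counts were 143 times those of WT, with an exact 95% binomial interval of 39.4 to 1183 for counting error only. Like SOX18, it passed the filter only through the PCGF6-KO libraries (adjusted p = 0.000169). The agonist ANGPT1 had a log2FC of 0.40 (adjusted p = 0.242) and ANGPT4 fell (−1.64, adjusted p = 0.0218). ANGPT4, with 23 and 15 counts in WT and 3 to 10 in PCGF6-KO, passed the filter only through WT. VEGFA, the ligand of KDR and FLT1, had 642 and 630 counts in WT and between 611 and 715 in PCGF6-KO (log2FC −0.06, adjusted p = 0.564).

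Of 5 co-receptors, regulators and paralogs of the VEGF receptors, 3 rose, 1 fell and 1 was not called (median 0.89). NRP1 and NRP2, the neuropilin co-receptors of KDR, rose by 3.76 (adjusted p = 0.000233) and 1.94 (adjusted p = 0.000299) on the log2 scale. NRP2 had 45.5 ± 1.87 CPM (SD, n = 2) in WT, against 132 ± 1.45 CPM (n = 2) for clone 1 and 216 ± 1.85 CPM (n = 2) for clone 2. PTPRB, the endothelial phosphatase that acts on TEK, rose by 0.89 (adjusted p = 0.0466), from 15 and 15 counts in WT. By clone, PTPRB was called in clone 2 (1.08, adjusted p = 0.0109) but not in clone 1 (0.67, adjusted p = 0.135). Of 9 further endothelial SOX and ETS factors and their companions, 4 rose, 1 fell and 4 were not called (median 0.36). SOX17, the SOX F relative of SOX18 that also marks endoderm, had 0 counts in both WT libraries and 33 to 47 in PCGF6-KO, at least 26.3-fold higher against 3 counts over both WT libraries. FLI1 (log2FC 3.21) and MECOM (3.52) rose, and ERG, an ETS factor kept on in mature endothelium, fell from 156 and 142 counts in WT to between 23 and 42 (−2.31, adjusted p = 0.000116). FLI1, with 9 and 10 counts in WT, passed the filter only with PCGF6-KO libraries. SOX7, the remaining SOX F gene, was not called (0.36, adjusted p = 0.315).

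Many genes of differentiated endothelium and of blood cells did not pass the filter on low counts. Of 16 endothelial surface and effector genes, 9 were tested, of which 3 rose (ESAM, PLVAP and S1PR1), 1 fell (NOTCH4) and 5 were not called (median 0.14). ESAM (2 and 2 counts in WT) and PLVAP (6 and 1) passed the filter only through PCGF6-KO. The summed level of the 16 genes was 39.4 to 39.9 CPM in WT and 32.0 to 46.8 CPM in PCGF6-KO. EMCN had 0 counts in 5 of the 6 libraries, and CD34, the surface marker of vessel and blood progenitors, was not called (log2FC 0.14, adjusted p = 0.773). Of 14 blood cell genes, the embryonic and fetal globins HBZ, HBE1, HBG1 and HBG2 had 0 counts in all 6 libraries, 5 genes were tested, 2 fell (EPOR, −0.95, and SPN, −2.58) and 0 rose (median −0.79). Of 10 partners of TAL1 and LMO2, 9 were tested, 2 rose, 0 fell and 7 were not called (median 0.36). Those that rose were GATA2, a zinc-finger factor of blood progenitors (log2FC 4.35, adjusted p = 0.00122), counted 7 and 9 times in WT libraries, 102 and 94 times in clone 1 and 254 and 253 times in clone 2, and RUNX1, the factor of definitive blood emergence (3.37, adjusted p = 0.000323). GATA2 passed the filter only through PCGF6-KO.

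Markers of other cell types differed between the genotypes as well. Here too, tested genes counted fewer than 10 times in a WT library passed the filter only with PCGF6-KO libraries. Of 11 mesoderm markers in the table, 9 were tested and all 9 rose, with a summed level of 16.8 to 17.5 CPM in WT and 752 to 1011 CPM in PCGF6-KO. The median log2FC was 8.38, or 5.56 with the 3 tested genes at 0 in WT set at their lower bound. Those 3, with TBXT (0 and 12 counts in WT) and EOMES (3 and 5), passed the filter only with PCGF6-KO libraries. The 9 of 9 is thus partly set by the filter. Of 7 pericyte and smooth muscle genes, 5 rose and 0 fell (median 1.64), and their sum went from between 191 and 195 CPM to between 809 and 1087 CPM. Of 6 endoderm markers, 6 were called higher (median 4.51, or 4.10 with SOX17 at its lower bound, sum 12.3 to 13.2 CPM in WT and 126 to 175 CPM in PCGF6-KO). But 3 of them (counted 0 to 2 times per WT library) and FOXA2 (7 and 5 times) were testable only through PCGF6-KO. The 6 of 6 is thus partly set by the filter. Of 9 trophoblast and amnion markers, 7 were tested, 5 rose and 0 fell (median 3.77, sum 12.6 to 14.8 CPM against 89.8 to 183 CPM). Of the 5, HAND1 (0 and 0 counts in WT), TFAP2A (6 and 5) and ISL1 (8 and 5) passed the filter only with PCGF6-KO libraries. The 5 of 7 is thus partly set by the filter. HAND1 was the largest part of the sum in PCGF6-KO (35.1 to 111 CPM). KRT7 and GABRP were not called, though KRT7 was called lower in clone 2 (−1.07), and CGA and VTCN1 were not tested. Of 6 neuroectoderm markers, 5 were tested, 3 rose and 1 fell (median 1.38, sum 349 to 395 CPM against 625 to 742 CPM). That sum was mostly NES (276 and 322 CPM in WT, 591 to 708 CPM in PCGF6-KO), so it does not speak for the list. OTX2 fell from a mean of 72.0 CPM in WT to 30.1 CPM in PCGF6-KO. ZIC1 and LHX2 rose but passed the filter only through PCGF6-KO. SOX17 is also in the list of SOX and ETS factors, and HAND1 is in both the mesoderm and the trophoblast list. The part of these markers in the differences of the vessel and blood genes was not tested.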

How the data were processed

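RNA-seq libraries of WT (2), PCGF6-KO clone 1 (2) and clone 2 (2) were analysed. Reads had been trimmed by the authors with Trim Galore (0.6.2), aligned to GRCh38 with HISAT2 (2.1.0) and counted per gene with featureCounts, and raw counts were deposited with gene lengths. The annotation release, strand setting and treatment of multi-mapped reads are not given in the sources used here. ChIP-seq was not analysed here.

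Counts were filtered with edgeR's filterByExpr on the 2 genotypes (17672 genes), scaled by TMM and tested with glmQLFit and glmQLFTest (edgeR 4.0.16, limma 3.58.1, R 4.3.3), with Benjamini-Hochberg adjustment over all tested genes. The 4 PCGF6-KO libraries were compared with WT as 1 group, and the clones in a fit with 3 groups. Standard errors were derived from the fold change and its F statistic. Levels per kilobase used the deposited lengths. Positions came from GENCODE release 44 and promoters from RefSeq. The genes and lists were chosen with earlier results of these data known. Genes outside the 10 were named by a rule of at most 3 called genes per list with the largest fold change, besides PCGF6, FLT4, SOX7, SOX17, VEGFA, ANGPT1, GATA2, RUNX1, CD34 and pluripotency genes. ERG, NOTCH4, EMCN, EOMES, FOXA2, ISL1, KRT7, GABRP, CGA, VTCN1, NES, the globins and the neighbouring genes fell outside it and were chosen after their values were seen. Also tried were DESeq2 (1.42.0), scaling by RLE or by the upper quartile, other filters, the adjusted p alone, a replicate block, other groupings in the fit, and leaving out each library. The scripts were tested on simulated counts.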

Additional observations from a re-analysis of the deposited data

Results flagged for a closer look

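LMO2 and PECAM1 were called in the direct test of clone 2 against clone 1. The log2 difference was 2.04 for LMO2, with 30 and 22 counts in clone 1 and 110 and 87 in clone 2. It was 1.57 for PECAM1, with 6 and 6 counts in clone 1 and 16 and 17 in clone 2, and the PECAM1 call was lost by DESeq2 (adjusted p = 0.177) and without any 1 of the 4 clone libraries. Between the same clones, PCGF6 itself was higher in clone 2 by 0.90 on the log2 scale (standard error 0.15). Of the 9 tested mesoderm markers, 7 were called higher in clone 2 and 0 were called lower, with a median difference of 0.92. Among all tested genes, 3.73% were called higher and 4.14% lower between the clones. EOMES had a log2 difference of −0.53 (adjusted p = 5.0e-06), under the fold change threshold in size. The part of PCGF6 and of these markers in the differences of LMO2 and PECAM1 was not tested. No library stood apart from the other 3 PCGF6-KO libraries in any of the 10 genes by Dixon's ratio of gap to range, whose highest value was 0.738, for TEK, under the critical value.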

How the results depend on the processing

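Across the 4 comparisons and 482 recomputed fold changes of single genes, 449 kept their direction and their side of the thresholds, 11 lost a call, 15 gained one and 7 changed sign. With at least 10 counts in every library, only KDR, FLT1, TEK and CDH5 could be tested, and edgeR called 2 of these 4 (KDR and CDH5) in PCGF6-KO, 2 in clone 1, 2 in clone 2 and 0 between the clones. Over all genes, edgeR then called 3110 in PCGF6-KO and 3177 in clone 1. DESeq2 called 3 of the members in clone 1, where it called 3526 of all genes, and 1 between the clones. Such counts show only how far the calls hold, not whether the members differ from other genes. Leaving out 1 library gave between 1 and 2 calls between the clones. ETV2 changed sign, ranging over left-out libraries from −0.70 to 0.51 in PCGF6-KO, from −1.01 to 0.20 in clone 1 and from −0.43 to 0.77 in clone 2, as did, between the clones, TIE1 (−0.17 to 0.98) and KDR (−0.09 to 0.02). The cause was not tested. Same-numbered libraries shared only a number (correlation of replicate differences 0.04, 0.06 and 0.14). In the fit with the replicate block, 4, 5, 5 and 2 of the genes were called, the same genes as without it. Over all genes, that fit called 3876 in PCGF6-KO and 4420 in clone 1. Upper-quartile scaling moved the median of all genes by at most 0.04. Counts of 3 or fewer limit SOX18 and TAL1 in WT.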
